A study of Mesocricetus auratus with 10 samples.

Results

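The SLC25 genes encode the mitochondrial carrier family, and 41 of them were named on an array that measured the liver of golden hamsters (Mesocricetus auratus) on a high fat diet (HFD) against a pool of hamsters on a standard diet (STD). A gene was counted when a probe's deposited gene name began with SLC25A and a number, and its brightest probe stood for it. These 41 genes had 172 probes, out of 14434 named genes with 67053 probes. Of these, 40 SLC25 genes with 161 probes could be tested, among 13827 genes tested in all, and SLC25A35 was too dim. The tested animals were 10 male hamsters on the HFD, each hybridised on 2 arrays of 2 colours with the dyes exchanged. All were set against the same RNA, a single pool made from the livers of 10 STD hamsters. The labels name no strain, age, diet composition or length of feeding.

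Carriers of this family sit in the inner membrane of mitochondria, and in a few cases in the outer membrane or in peroxisomes. Most exchange a metabolite of the cytosol for another of the matrix, such as ADP for ATP, malate for citrate, or ornithine for citrulline. In hepatocytes they connect the cytosolic and the mitochondrial steps of urea synthesis, fatty acid oxidation, fatty acid synthesis and the transfer of reducing equivalents. Several are abundant in liver, among them SLC25A13 (citrin), SLC25A15 (the ornithine carrier) and SLC25A47.

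Each probe was 60 bases long, and the files place none of the 172 on the genome, so the sequences below carry no coordinates. Probes are numbered by brightness within a gene, and sequences run 5′ to 3′ as deposited. The 4 probes of SLC25A47 are shown because this gene had the largest difference of the family and each probe is a separate stretch of the same assembled transcript.
SLC25A47 probe 1: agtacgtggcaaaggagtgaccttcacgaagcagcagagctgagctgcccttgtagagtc
SLC25A47 probe 2: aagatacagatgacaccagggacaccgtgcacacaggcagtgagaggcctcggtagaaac
SLC25A47 probe 3: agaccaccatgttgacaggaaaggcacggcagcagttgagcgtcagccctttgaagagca
SLC25A47 probe 4: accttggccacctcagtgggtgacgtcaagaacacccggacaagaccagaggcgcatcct

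The next 4 belong to SLC25A30, whose probes gave unequal answers. Probes 1 to 3 come from one assembled transcript and probe 4 from another. Whether they also differ in strand was not tested.
SLC25A30 probe 1: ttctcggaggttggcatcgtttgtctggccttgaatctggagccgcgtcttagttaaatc
SLC25A30 probe 2: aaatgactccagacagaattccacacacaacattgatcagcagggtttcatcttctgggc
SLC25A30 probe 3: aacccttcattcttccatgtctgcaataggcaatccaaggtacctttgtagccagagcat
SLC25A30 probe 4: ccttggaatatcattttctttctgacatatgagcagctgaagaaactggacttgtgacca

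In 3 genes a pair of probes lay on opposite strands of the same stretch. Which strand of its gene a probe reads was not tested, for these or for the other probes. The capitals mark the bases that a probe shares with the reverse complement of its partner, 57 bases in SLC25A10, 45 in SLC25A25 and 57 in SLC25A28.
SLC25A10 probe 4: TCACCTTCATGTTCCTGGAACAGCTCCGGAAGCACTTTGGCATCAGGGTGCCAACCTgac
SLC25A10 probe 5: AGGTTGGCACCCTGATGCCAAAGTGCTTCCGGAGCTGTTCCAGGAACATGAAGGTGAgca
SLC25A25 probe 4: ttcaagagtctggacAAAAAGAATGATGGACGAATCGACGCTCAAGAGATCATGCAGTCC
SLC25A25 probe 5: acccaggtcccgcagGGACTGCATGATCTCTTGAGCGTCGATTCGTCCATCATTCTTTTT
SLC25A28 probe 2: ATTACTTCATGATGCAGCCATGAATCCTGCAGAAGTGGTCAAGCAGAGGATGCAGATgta
SLC25A28 probe 3: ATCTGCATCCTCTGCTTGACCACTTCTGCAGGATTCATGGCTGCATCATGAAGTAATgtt

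The brightest SLC25A42 probe is shown because it was not particular to its gene. Its capitals mark 48 bases that lie in runs of at least 20 bases shared, on either strand, with 46 probes of other names. The other 39 brightest SLC25 probes shared no run of 20 bases with a probe of another name.
SLC25A42 probe 1: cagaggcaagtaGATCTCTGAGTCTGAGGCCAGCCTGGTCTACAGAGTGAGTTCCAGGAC

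Values below are log2 ratios of HFD over the STD pool, 1 per animal and averaged over its 2 arrays, given as mean ± SD over 10 animals. A gene was called at an adjusted p under 0.05 in limma, with Benjamini-Hochberg adjustment over all 13827 genes. Which dye held the HFD RNA was read from the array names, and the direction of every ratio rests on them. The pool enters as 1 fixed RNA without an error of its own, so the p-values cover the spread of the HFD animals only. In bulk liver, fewer cells of a type and less RNA per cell cannot be told apart. The 6 arrays with HFD in Cy3 of animals 5 to 10 stood apart. Across genes they correlated with each other at a median r of 0.88, and with the HFD in Cy3 arrays of animals 1 to 4 at a median of 0.56. For called genes named below whose call was lost or whose mean moved by over 1.5 times without them, the value without them is given too. That value comes from a fit with a dye term, in which the HFD in Cy3 arrays of animals 1 to 4 weigh more. A call lost there can reflect this weighting or the missing arrays, which were not tested apart.

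Of the 40 SLC25 genes, 17 fell, 5 rose and 18 were not called. The share called was 55%, against 60.3% of all genes tested, and the direction was uneven. Among the carriers 42.5% were lower and 12.5% higher, where the whole array had 28.9% lower and 31.4% higher. The median carrier stood at -0.04 and the median of all genes at 0.01. All 10 animals lay on the same side of the pool for 14 of the 40 carriers, a property of 31.5% of all genes. A mean of at least 0.5 in size was reached by 4 called carriers, all lower, against 5.87% of all genes. Without the 6 arrays that stood apart, 13 carriers were lower and 5 higher, where 43.2% of all genes were called, 18.3% lower and 24.9% higher.

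**Figure D1:**
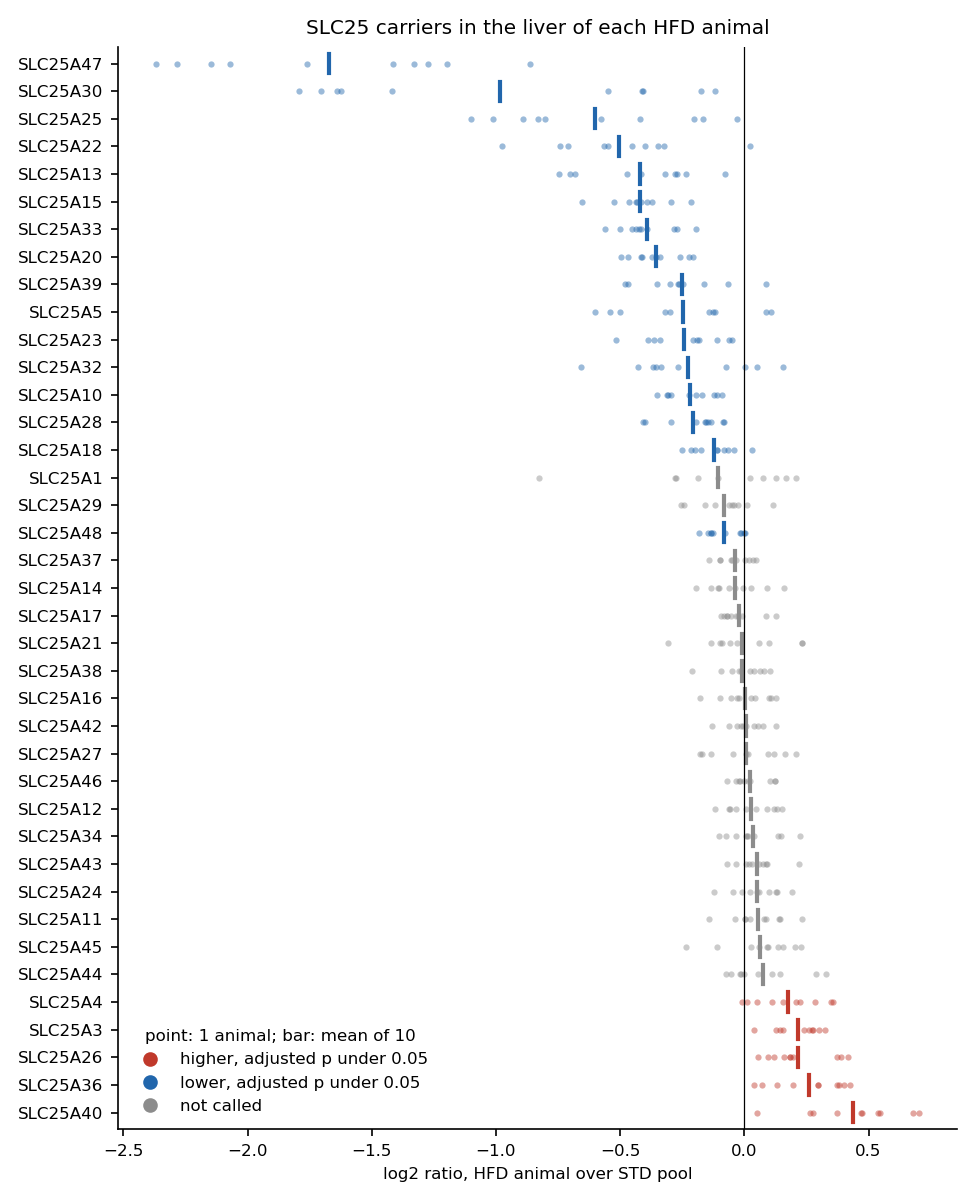
Log2 ratio of HFD over the STD pool (horizontal axis) for 39 of the tested SLC25 genes (rows, ordered by mean); each point is 1 HFD animal, each bar the mean of 10, and colour gives the call. SLC25A47 and SLC25A30 lie farthest below 0, 18 genes scatter around 0, and SLC25A40 lies farthest above it.

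The group listed as ornithine and basic amino acid carriers held the largest difference, through SLC25A47. SLC25A47 is a liver-enriched carrier placed in this group by its sequence only, and what it carries was not tested. It stood at -2.37 in the lowest animal, -1.59 in the median and -0.86 in the highest. Every animal was below the pool, with animals 1, 7, 9 and 10 below -2 and animal 3 the least changed. Its mean of -1.67 ± 0.52 was a 3.18-fold lower signal (adjusted p = 5.6e-07), ranking 5 from the lowest of 13827 genes. The probes shown above gave the same direction each, at -1.67, -1.69, -1.46 and -1.75 for probes 1 to 4. They come from the same assembled transcript, and which strand of the gene they read was not tested. It was -1.51 on arrays with HFD in Cy5 and -1.84 on arrays with HFD in Cy3, and -1.49 without the 6 arrays that stood apart.

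SLC25A15, which brings ornithine into the matrix for the urea cycle, lay between -0.66 and -0.21, with a median of -0.42. All 10 animals were below the pool and close together, and the mean of -0.42 ± 0.12 was 1.34-fold lower (adjusted p = 8.0e-07). Its brightest probe gave the smallest difference of its 5. The other 4, from the same assembled transcript, lay between -0.999 and -0.65, and the mean over all probes was -0.78. The orientations gave -0.41 with HFD in Cy5 and -0.43 with HFD in Cy3.

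Of the other genes listed in this group, SLC25A48 was called at -0.08 ± 0.07, but its probes disagreed. A further probe of it was higher at 0.34 and another lower at -0.20, its orientations gave 0.15 with HFD in Cy5 and -0.32 with HFD in Cy3, and the call was lost without the 6 arrays, at -0.01. SLC25A29, a carrier of lysine and arginine, was not called at -0.08 ± 0.11, nor was SLC25A45 at 0.06 ± 0.14.

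The urea cycle uses 2 carriers of the family, the ornithine carrier SLC25A15 and the aspartate carrier SLC25A13. Of its 6 enzymes, 5 fell, which is 83.3%, against 28.9% lower over all genes. OTC, which joins ornithine and carbamoyl phosphate in the matrix, was not called at -0.23 ± 0.41. The cytosolic enzymes ARG1, which releases urea and ornithine, and ASS1, which joins citrulline and aspartate, fell most, by 1.15 and 1.08. CPS1, which makes carbamoyl phosphate in the matrix, had a mean of -0.41 ± 0.38 and lost its call without the 6 arrays, at -0.09. The median of the 6 enzymes was -0.32.

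Among the amino acid carriers for aspartate, glutamate and branched-chain amino acids, 3 of 5 fell, against 28.9% lower over all genes. The share called was 60%, near the 60.3% of all genes. SLC25A22, a glutamate carrier, stood at -0.98 in the lowest animal, -0.50 in the median and 0.02 in the highest. Only animal 3 was not below the pool. The mean of -0.50 ± 0.27 was 1.42-fold lower (adjusted p = 7.1e-05). It had 1 probe, with -0.48 on arrays with HFD in Cy5 and -0.53 with HFD in Cy3, and -0.34 without the 6 arrays.

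SLC25A13 (citrin), the aspartate-glutamate exchanger of liver, lay between -0.75 and -0.08 with a median of -0.37. All animals were below the pool, and animals 7, 9 and 10 were the lowest. Its mean of -0.42 ± 0.23 was 1.34-fold lower (adjusted p = 7.2e-05), with -0.39 and -0.45 for HFD in Cy5 and in Cy3. Of its 12 further probes 10 were lower and 2 not called, and none was higher. The mean without the 6 arrays was -0.24, still called. SLC25A12 (aralar), the exchanger of muscle and brain, was not called at 0.03 ± 0.09, although 4 of its 7 further probes were higher.

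The second glutamate carrier, SLC25A18, was called at -0.12 ± 0.09, with opposite orientations of 0.12 for HFD in Cy5 and -0.37 for HFD in Cy3. It lost that call without the 6 arrays, at -0.02. SLC25A44, a carrier of branched-chain amino acids, was not called at 0.08 ± 0.14. It was called at 0.17 without the 6 arrays. Of the 4 enzymes of the malate-aspartate shuttle, which carries reducing equivalents with citrin's help, MDH1 fell with a mean of -0.34 ± 0.25 and MDH2 with -0.08 ± 0.08. Both calls were lost without the 6 arrays, at -0.06 each. MDH2 also lost its call in 5 of 10 fits without 1 animal and in 4 of 15 other settings, the 14 arrays included.

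SLC25A20, the carnitine-acylcarnitine exchanger that lets long-chain fatty acids enter the matrix for oxidation, differed little between animals for the size of its fall. The animals lay between -0.50 and -0.21, with a median of -0.37, and none reached the pool's level. The mean of -0.36 ± 0.10 was 1.28-fold lower (adjusted p = 1.0e-06). All 5 further probes were lower, with a median of -0.29. It was -0.48 with HFD in Cy5, -0.23 with HFD in Cy3 and -0.36 without the 6 arrays.

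The other 4 genes of the carnitine shuttle also fell, each in all 10 animals. CPT1A, which loads fatty acids on carnitine at the outer membrane, had a mean of -0.49 ± 0.17. CPT2, which unloads them in the matrix, had -0.46 ± 0.35. The plasma membrane carnitine importer SLC22A5 had -0.35 ± 0.15 and the acetyl transferase CRAT -0.21 ± 0.08. These compare with a share of 28.9% lower over all genes.

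The carriers of adenine nucleotides and phosphate split. SLC25A5, the ADP/ATP exchanger of proliferating and many other cells, lay between -0.60 and 0.11 with a median of -0.22. Animals 2 and 3 were above the pool and animals 5, 9 and 10 at or below -0.50. The mean of -0.25 ± 0.25 was 1.19-fold lower (adjusted p = 0.0070), with -0.15 for HFD in Cy5 and -0.35 for HFD in Cy3. All 4 further probes were lower, with a median of -0.40. Without the 6 arrays the mean was -0.03 and no longer called. On the arrays with HFD in Cy5 alone, which include none of the 6, it was called at -0.15. The remaining arrays with HFD in Cy3, of animals 1 to 4, gave -0.02, 0.28, 0.22 and -0.14.

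SLC25A4, the ADP/ATP exchanger best known from heart and muscle, rose with a mean of 0.17 ± 0.13 and 9 of 10 animals above the pool. The phosphate carrier SLC25A3, which supplies ATP synthase, rose with a mean of 0.21 ± 0.09. All 10 animals were above the pool, between 0.04 and 0.32, and 9 of its 10 further probes were higher. Both kept their calls in all 15 other settings tried and in each fit without 1 animal. Levels of skeletal muscle markers gave animal means between 0.03 and 0.17 over 5 genes, of which 2 were called higher and 2 lower, and their part in the value of SLC25A4 was not tested.

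The calcium-regulated ATP-Mg/phosphate carriers, which set the adenine nucleotide pool of the matrix, had 2 lower members of 3, against 28.9% of all genes. SLC25A25 lay between -1.10 and -0.03 with a median of -0.69. Animals 5 and 6 were the lowest, animals 1, 8 and 10 nearest the pool, and none was above it. The mean of -0.60 ± 0.38 was 1.52-fold lower (adjusted p = 0.00021), with -0.71 for HFD in Cy5, -0.49 for HFD in Cy3 and -0.62 without the 6 arrays. All 6 further probes were lower, between -0.82 and -0.11, and the mean over all probes was -0.39. The pair on opposite strands gave -0.39 for probe 4 and -0.82 for probe 5.

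SLC25A23 fell as well, with a mean of -0.24 ± 0.15 and all animals below the pool, and was -0.14 without the 6 arrays, still called. SLC25A24 was not called at 0.05 ± 0.09.

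Of the 5 di- and tricarboxylate carriers 1 was called, which is 20%, against 60.3% of all genes. SLC25A10, which exchanges malate or succinate for phosphate, fell with a mean of -0.22 ± 0.09. All 10 animals and all 4 further probes were lower, and its opposite-strand pair gave -0.31 for probe 4 and -0.52 for probe 5. SLC25A1, which exports citrate for fatty acid and sterol synthesis, was not called at -0.11 ± 0.31. Its animals lay between -0.83 and 0.21 with a median of -0.04. The value of animal 10 stood alone at the low end, and without it the mean was -0.03. The oxoglutarate-malate carrier SLC25A11 stood at 0.05 ± 0.11, the oxodicarboxylate carrier SLC25A21 at -0.01 ± 0.17 and SLC25A34 at 0.04 ± 0.10, none of them called.

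The citrate and pyruvate genes around SLC25A1 went apart. ACLY, which splits exported citrate in the cytosol, fell in every animal with a mean of -0.94 ± 0.15, and IDH1 with -1.02 ± 0.59, which was -0.50 without the 6 arrays. CS, which makes citrate in the matrix, rose in every animal with a mean of 0.61 ± 0.20. Of the 7 genes of this list 4 were lower and 1 higher, which is 57.1% and 14.3%, against 28.9% and 31.4% of all genes.

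Of the 8 carriers of nucleotides and cofactors, 3 fell and 2 rose. The share called was 62.5%, near the 60.3% of all genes. SLC25A33, a pyrimidine nucleotide carrier, lay between -0.56 and -0.19 with a median of -0.42. All animals were below the pool, and the mean of -0.39 ± 0.11 was 1.31-fold lower (adjusted p = 9.1e-07). The orientations gave -0.43 with HFD in Cy5 and -0.36 with HFD in Cy3, and both further probes gave -0.47. Without the 6 arrays it was -0.27, still called.

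The related pyrimidine nucleotide carrier SLC25A36 went the other way. Its animals lay between 0.04 and 0.42 with a median of 0.30, all above the pool. The mean of 0.26 ± 0.14 was 1.20-fold higher (adjusted p = 0.00014), with 0.20 for HFD in Cy5 and 0.32 for HFD in Cy3. It was a dim probe, clearly detected in the pool on 14 of the 20 arrays, and its size moved with the source of the ratios. It was 0.74 by the scanner software's processed signals and 0.56 in the authors' deposited table of log2 ratios, and the step that moved it was not tested. Of 5 further probes 4 were higher and 1 not called. Without the 6 arrays the mean was 0.12 and no longer called. On the arrays with HFD in Cy5 alone, which include none of the 6, it was called at 0.20. The remaining arrays with HFD in Cy3, of animals 1 to 4, gave -0.20, -0.03, 0.07 and 0.30.

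SLC25A32, a carrier linked to folate and FAD, fell with a mean of -0.23 ± 0.25, though 3 animals were above the pool. It was -0.48 on arrays with HFD in Cy5 and 0.02 on arrays with HFD in Cy3, where it was not called, and -0.39 without the 6 arrays. SLC25A26, which imports S-adenosylmethionine, rose with a mean of 0.22 ± 0.13, but a further probe on another assembled transcript was lower at -0.21. Its orientations gave 0.04 with HFD in Cy5, where it was not called, and 0.39 with HFD in Cy3, and it was 0.14 without the 6 arrays.

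The peroxisomal carrier SLC25A17 stood at -0.02 ± 0.07 and SLC25A16 at 0.00 ± 0.10, neither called. SLC25A42, a carrier of coenzyme A, stood at 0.01 ± 0.07 by the probe with shared runs printed above. That probe gave 0.31 with HFD in Cy5 and -0.30 with HFD in Cy3. Of its 9 further probes 7 were not called, 1 was higher and 1 lower.

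Among the carriers of iron, glycine and glutathione, SLC25A40 had the largest rise of the family. SLC25A39 and SLC25A40 are related carriers that bring glutathione into mitochondria. SLC25A40 lay between 0.05 and 0.70 with a median of 0.47. All animals were above the pool, with animal 2 the nearest to it, and the mean of 0.44 ± 0.20 was 1.35-fold higher (adjusted p = 2.2e-05). The orientations differed in size, at 0.13 with HFD in Cy5 and 0.75 with HFD in Cy3. All 4 further probes were higher, with a median of 0.36, and without the 6 arrays the mean was 0.30, still called.

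SLC25A39 moved in the other direction. Its animals lay between -0.48 and 0.09 with a median of -0.26, and only animal 2 was above the pool. The mean of -0.25 ± 0.17 was 1.19-fold lower (adjusted p = 0.00063), with -0.24 for HFD in Cy5 and -0.26 for HFD in Cy3. Both further probes were lower. Without the 6 arrays the mean was -0.07 and no longer called. On the arrays with HFD in Cy5 alone, which include none of the 6, it was called at -0.24. The remaining arrays with HFD in Cy3, of animals 1 to 4, gave 0.02, 0.28, 0.05 and 0.005.

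SLC25A28 (mitoferrin 2), which imports iron in most tissues, fell with a mean of -0.21 ± 0.12 and all 10 animals below the pool, and was -0.10 without the 6 arrays, still called. All 4 further probes were lower, and its opposite-strand pair gave -0.15 for probe 2 and -0.22 for probe 3. SLC25A37 (mitoferrin 1), the form of red cell precursors, was not called by its brightest probe at -0.04 ± 0.06, while both further probes were lower at -0.13 and -0.34. The glycine carrier SLC25A38 was not called at -0.01 ± 0.09.

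Of 8 enzymes of haem and iron-sulphur synthesis, which use the imported iron and glycine, 3 fell and 2 rose. The share called was 62.5%, near the 60.3% of all genes. FECH, which inserts iron into haem, rose with a mean of 0.34 ± 0.10, at 0.11 with HFD in Cy5 and 0.57 with HFD in Cy3, and the scaffold gene ISCU had -0.30 ± 0.28, a call lost without the 6 arrays at -0.04.

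SLC25A30, a relative of the uncoupling proteins first described in kidney, had the widest spread of the family. Its animals lay between -1.79 and -0.12 with a median of -0.98. No animal lay near that median, since animals 5, 7, 8, 9 and 10 were between -1.79 and -1.42 and the other 5 between -0.55 and -0.12. The mean of -0.98 ± 0.70 was 1.98-fold lower (adjusted p = 0.00050).

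Most of the arrays that stood apart gave lower values of SLC25A30 than any other array. With HFD in Cy3, the arrays of animals 5, 7, 8, 9 and 10 gave -2.08, -2.12, -2.06, -2.36 and -2.39. With HFD in Cy5, the same animals gave -1.51, -1.16, -1.18, -0.48 and -1.02. The orientation means were -0.71 for HFD in Cy5 and -1.26 for HFD in Cy3, and the mean without the 6 arrays was -0.49, still called. By probe it was -0.98, -0.55, -0.41 and 0.07 for probes 1 to 4 as printed above, with probe 4 not called.

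The other relatives of the uncoupling proteins, SLC25A14 at -0.04 ± 0.11 and SLC25A27 at 0.01 ± 0.14, were not called. UCP2 and UCP3 under their own symbols were not called either, at -0.03 ± 0.13 and 0.01 ± 0.11. MTCH2, a distant family member of the outer membrane that inserts proteins there, rose in all animals with a mean of 0.32 ± 0.08, with 0.06 for HFD in Cy5, where it was not called, and 0.59 for HFD in Cy3. The ungrouped carriers SLC25A43 at 0.05 ± 0.08 and SLC25A46, an outer membrane protein of mitochondrial shape, at 0.02 ± 0.07 were not called. The 5 probes of SLC25A35 were well above background on at most 7 arrays in HFD RNA and at most 8 in the pool RNA.

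**Figure D2:**
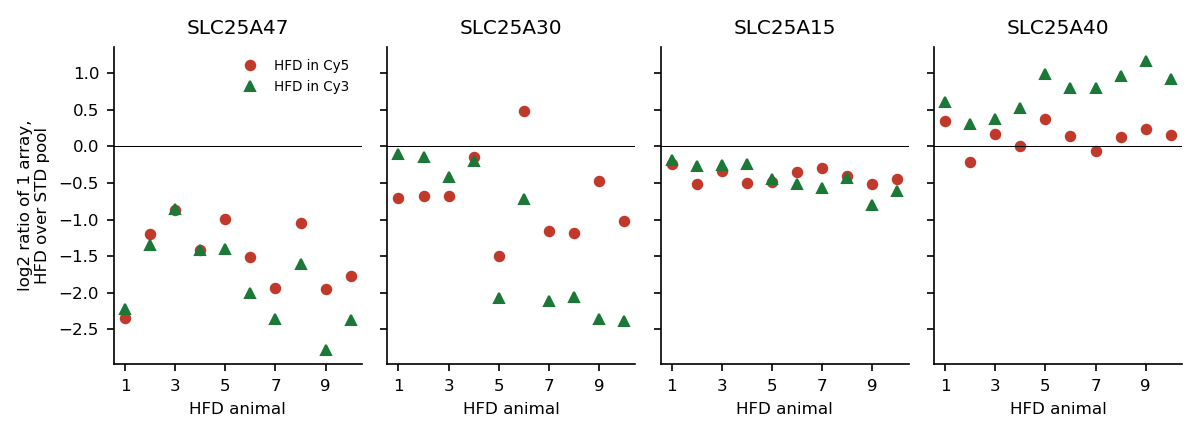
Log2 ratio of HFD over the STD pool on each single array (vertical axis) by HFD animal (horizontal axis) for 4 SLC25 genes; circles are arrays with HFD in Cy5 and triangles arrays with HFD in Cy3. SLC25A47 and SLC25A15 are below 0 on all 20 arrays, SLC25A30 reaches below -2 only with HFD in Cy3 of animals 5, 7, 8, 9 and 10, and SLC25A40 is higher with HFD in Cy3 in every animal.

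The dye orientations gave the same sign for 19 of the 22 called carriers, which is 86.4%, beside 86.9% of all called genes. The exceptions were SLC25A18, SLC25A48 and SLC25A32. The means with HFD in Cy3 include the arrays that stood apart. For SLC25A39, the HFD in Cy3 arrays of animals 1 to 4 were all above the pool, at 0.02, 0.28, 0.05 and 0.005. For SLC25A5 they gave -0.02, 0.28, 0.22 and -0.14. How many carriers keep the same sign in both orientations without the arrays that stood apart was not tested. Called or not, 23 of the 40 carriers had the same sign in both orientations, beside 9043 of all 13827 genes. Over the 40 carriers the orientation means correlated at r = 0.76 and over all genes at 0.68, as a description of arrays that share the same RNAs.

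**Figure D3:**
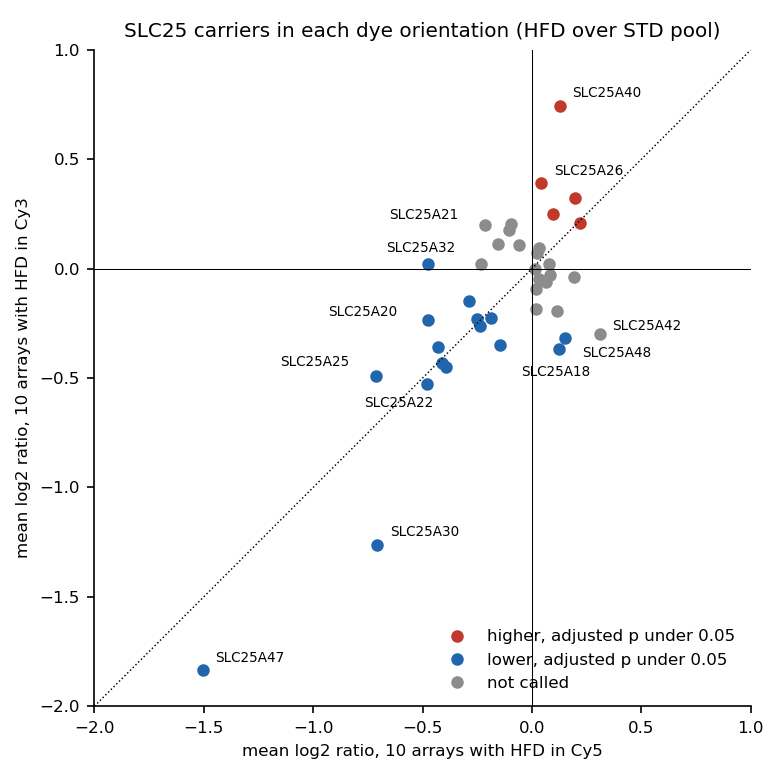
Mean log2 ratio of HFD over the STD pool on the 10 arrays with HFD in Cy5 (horizontal axis) against the 10 arrays with HFD in Cy3 (vertical axis); each point is 1 of 39 SLC25 genes, coloured by call, and the dotted line marks equality. SLC25A47 is at -1.51 and -1.84 and SLC25A30 at -0.71 and -1.26. SLC25A18, SLC25A48 and SLC25A42 are among the genes with opposite signs on the axes.

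Further probes gave the call of the brightest in most carriers. Of 20 called carriers with further probes, 18 had another probe called the same way, which is 90%, against 78.1% over all called genes with further probes. An opposite call was found for 2 carriers, SLC25A26 and SLC25A48, which is 10%, against 22.9% over all such genes. In the fit of every probe, 59.2% of 61679 probes were called, 28.2% lower and 31% higher.

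**Figure D4:**
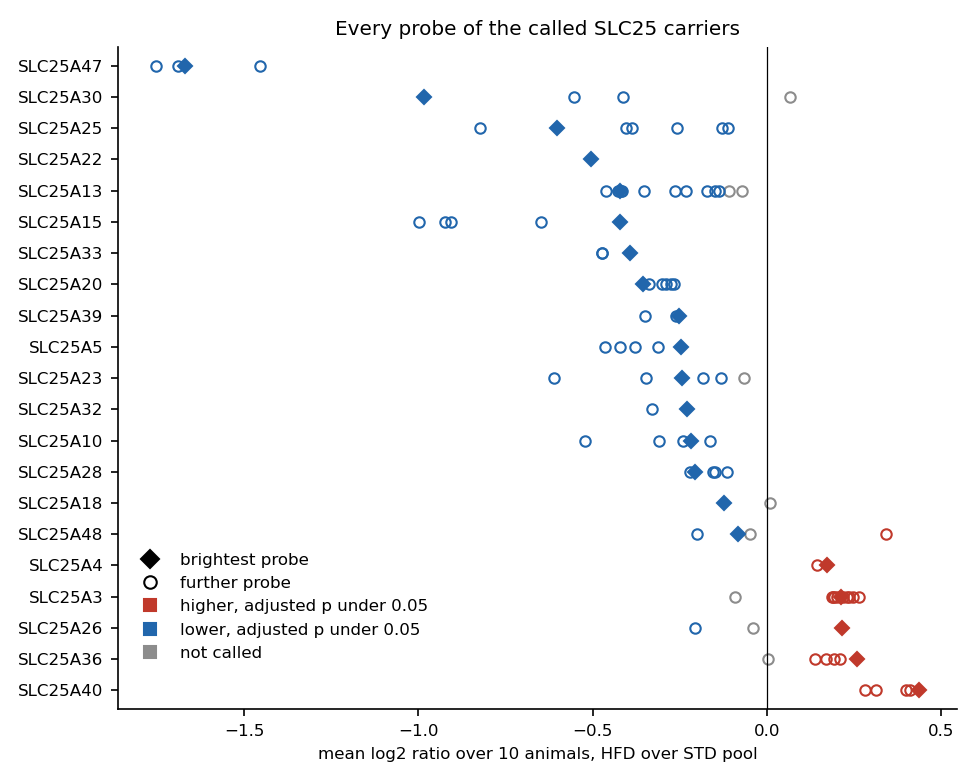
Mean log2 ratio of HFD over the STD pool over 10 animals (horizontal axis) for every probe of 21 of the called SLC25 genes; diamonds are brightest probes, open circles further probes, and colour gives the call of the probe. The SLC25A47 probes lie between -1.75 and -1.46, those of SLC25A15 between -0.999 and -0.42, and SLC25A26 and SLC25A48 have probes on both sides of 0.

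Carriers reach the inner membrane through the outer membrane receptor TOMM70A, the TOMM complex and small chaperones of the intermembrane space. Of 7 such import genes 5 fell and 1 rose, which is 71.4% lower and 14.3% higher, against 28.9% and 31.4% of all genes. TOMM20 had a mean of -0.61 ± 0.26 and TOMM70A -0.54 ± 0.12, both lower in all 10 animals and both at -0.36 without the 6 arrays. Of the outer membrane channels, VDAC2 rose with a mean of 0.35 ± 0.10, and VDAC1 had -0.34 ± 0.23, not called without the 6 arrays at -0.09.

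Genes read as a measure of mitochondrial content did not share a direction. Of 10, 5 rose and 3 fell, which is 50% and 30%, against 31.4% and 28.9% of all genes. The matrix protease LONP1 rose with a mean of 0.45 ± 0.13 and the chaperone HSPD1 fell with a mean of -0.80 ± 0.41, each in all 10 animals. HSPD1 was -0.38 without the 6 arrays.

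**Figure D5:**
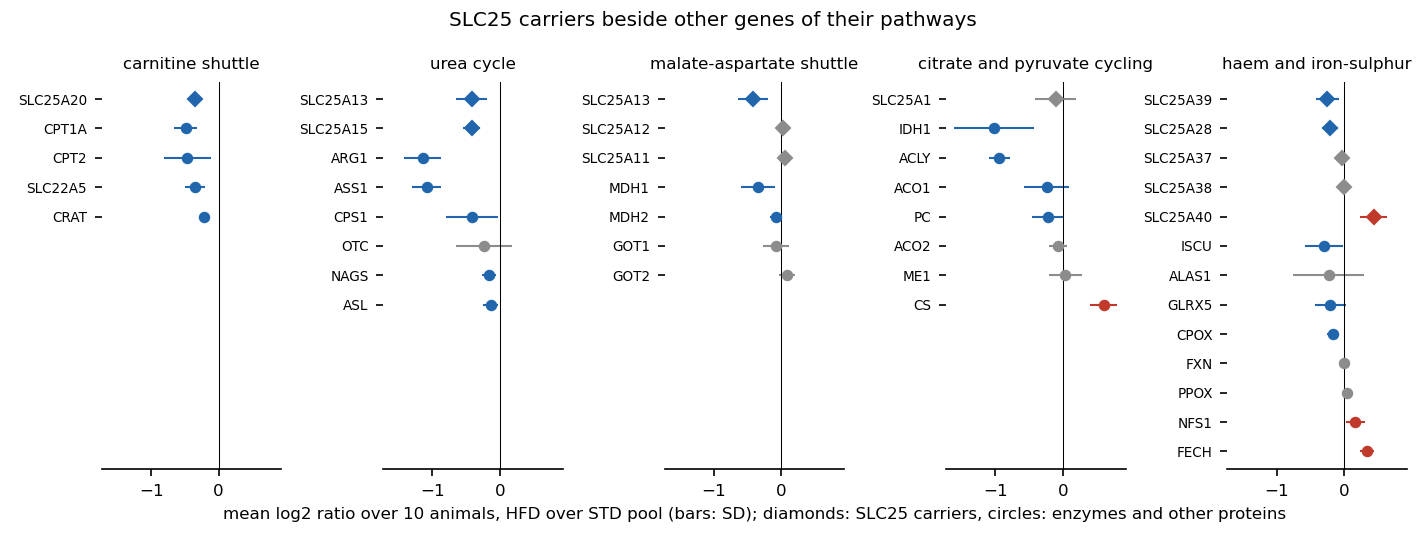
Mean log2 ratio of HFD over the STD pool with SD over 10 animals (horizontal axis) for SLC25 carriers (diamonds) and other genes of the same pathway (circles), with blue for lower, red for higher and grey for not called. In the carnitine shuttle SLC25A20 and all 4 other genes lie below 0, in the urea cycle ARG1 and ASS1 lie below both carriers, and in citrate and pyruvate cycling CS lies above 0 and ACLY and IDH1 far below it.

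Hepatocyte markers were also lower against the pool. Of 9 tested, 6 were lower and 1 higher, against 28.9% and 31.4% of all genes. Their mean lay between -0.51 and -0.15 over the animals, lowest in animals 9 and 10. Animals 9 and 10 also held the lowest value of most of the lower carriers. It was animal 9 for SLC25A47, SLC25A22, SLC25A15, SLC25A39, SLC25A5, SLC25A28, SLC25A18 and SLC25A48. It was animal 10 for SLC25A13, SLC25A23 and SLC25A10. The lowest was animal 5 for SLC25A30, SLC25A25 and SLC25A33, animal 7 for SLC25A20 and animal 2 for SLC25A32. The carrier values and marker means of animals 5 to 10 include the 6 arrays that stood apart. With HFD in Cy5 alone, the lowest was animal 1 for SLC25A47, SLC25A13 and SLC25A39. It was then animal 2 for SLC25A22 and SLC25A15, and animal 5 for SLC25A5. Averaged over its 2 arrays, animal 1, with a marker mean of -0.23, had the second lowest value of SLC25A47. All 9 markers were detected in HFD RNA and in the pool, each on 10 or more arrays. Macrophage and Kupffer cell markers had 5 of 9 higher and 3 lower, against 31.4% and 28.9% of all genes. Their animal means lay between -0.05 and 0.40. The part of these cells in the carrier ratios was not tested.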

How the data were processed

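Liver RNA of 10 HFD hamsters was measured against 1 pool of 10 STD hamsters on 20 arrays, from 100 ng RNA each, per the labels' protocols. The deposited spot intensity values were made with Agilent Feature Extraction 10.7.3.1, per the file headers. A deposited table of the authors' own log2 ratios, made with limma per the submitters' processing notes, served as an alternative. Its columns had medians between -0.0145 and 0.0185. The sources used here give no other step of it, so its centring and exact scale are unknown.

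Here intensities were background-corrected by normexp with offset 50 and normalised by loess within arrays with limma 3.58.1 (R 4.3.3). Control and outlier spots had weight 0. Every ratio was signed as HFD over STD pool, spots were averaged per probe and the 2 arrays of an animal averaged. A probe was kept when well above background in either RNA on at least 10 of the 20 arrays. The brightest probe by mean signal stood for a gene. Means were tested against 0 by lmFit and eBayes, two-sided, over all 13827 named genes, at an adjusted p threshold of 0.05. Values without the 6 arrays come from a fit to the 14 remaining arrays as single values, with dye orientation as a covariate and repeated animals as a random effect. Values of single probes come from a fit of all 61679 probes. No spot was saturated on any array, and the number of arrays limits the precision.

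Values of 1 tested carrier are not reported here, though counts include it. The other SLC25 genes may be named, the 12 called with the largest mean in full, and called genes of the related lists. The members and lists were chosen with earlier results of these data known. All 41 names occur among RefSeq symbols of the assembly BCM_Maur_2.0. Nothing in the sources says that the animals were housed or handled apart, so the p-values measure the spread between these samples. On simulated data over 13827 genes for this comparison, 39 of 50 genes changed by 0.2, 49 of 50 changed by 0.4 and all 50 changed by 0.8 were recovered, with 15 unchanged genes called. The simulated noise was independent between genes and animals. It held no pool error, dye effect or arrays that stood apart, so it cannot tell how these affect the calls.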

Additional observations from a re-analysis of the deposited data

Results flagged for a closer look

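In 61 genes examined (the 40 carriers and genes named from related lists), 4 had 1 animal whose gap to the nearest other, divided by the range of the 10 animals, exceeded Dixon's critical value for 10 samples. Chance alone flags about 1 in 20 such groups. SLC25A1 stood at -0.829 in animal 10, with the next lowest at -0.280. CPS1 stood at -1.32 in animal 9, with the next at -0.58. CPT1A stood at -0.855 in animal 7, with the next at -0.589. CRAT stood at -0.0135 in animal 8 at the high end, with the next at -0.153.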

How the results depend on the processing

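Of the 22 called carriers, 14 kept their call and direction in all 15 other settings, and all 22 in each of 10 fits without 1 animal. Without 1 animal, carriers numbered 5 to 6 higher and 17 to 18 lower, with a median between -0.0518 and -0.0264, and all genes 4054 to 4496 higher and 3755 to 4050 lower. The number of higher carriers was 8 by processed signals, 9 on arrays with HFD in Cy5, 10 on arrays with HFD in Cy3, 9 with slide as a random block and 10 with scan session as a random block. Their median was -0.0831 with the strict filter on dim probes, -0.0781 with HFD in Cy5 and -0.0768 with HFD in Cy3. All genes numbered 2529 lower on the 14 arrays, and 2735 higher and 2360 lower within scan session 3. Sign changes with a call on at least one side were SLC25A26 at -0.0089 and SLC25A48 at 0.0031 in the mean of all probes, SLC25A18 at 0.12, SLC25A34 at -0.10, SLC25A37 at 0.12 and SLC25A48 at 0.15 with HFD in Cy5, and SLC25A17 at 0.11, SLC25A21 at 0.20, SLC25A32 at 0.021 and SLC25A42 at -0.30 with HFD in Cy3. The cause was not tested. No paired analysis was possible because the series has 1 group of animals against a pool. Dim probes limit what can be said of SLC25A35, SLC25A36, SLC25A27 and SLC25A45.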
